A study of Mus musculus with 4 samples.

Results

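IgG2b cells, as the term is used here, are B cells of a germinal-centre cluster in mouse Peyer's patches whose leading heavy-chain constant transcript is Ighg2b. They were taken from cluster 3 of the authors' table of 22569 cells. A cell was a member when its UMIs (unique molecular identifiers, each standing for a captured RNA molecule) over 8 constant genes (Ighm, Ighd, Igha, Ighg1, Ighg2b, Ighg2c, Ighg3 and Ighe) reached 3 or more and Ighg2b held most of them, with ties left out. Of 1900 cluster 3 cells, 305 met this rule and the other 1595 served as the comparison. Members were thus chosen by measured values, the cluster number and the counts of those 8 genes, which are described below without a test of the choice itself.

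Peyer's patches are lymphoid tissue in the wall of the small intestine, and the sort kept cells with the leukocyte surface protein CD45. SFB-positive libraries came from female wild-type Taconic mice that carried segmented filamentous bacteria, gut commensals that attach to the ileal lining, and SFB-negative libraries from female wild-type Taconic mice without them. Tissue of 5 mice was pooled per group, and each group has 2 libraries, replicates 1 and 2. The labels give neither the age of the mice nor whether the replicates are separate pools, so a p-value measures at most the spread between these libraries, which may be technical. The study asked how this bacterium relates to antibody class switching, IgG2b included.

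In a germinal centre, B cells divide, mutate their antibody genes and can exchange the constant region of the heavy chain. In this exchange the DNA is cut ahead of the first constant gene, Ighm, and ahead of a later one. The segment between the cuts, which holds Ighm, is removed. IgG2b is a mouse IgG subclass that engages complement and Fc receptors, and in cultured mouse B cells TGF-beta can direct switching to it. A constant gene is also transcribed in germline form before its switch, so a leading Ighg2b transcript shows which constant gene a cell transcribed most, not that its DNA had been switched.

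Naming a cell by an IgG gene requires that reads of the related IgG genes can be told apart, so the last 90 coding bases of the secreted form of 4 IgG genes are shown, from the GENCODE M21 transcripts on GRCm38. The libraries were 3′ libraries, which favour reads near the end of a transcript. All 4 stretches lie on the minus strand of chromosome 12 within the last coding exon of that form, and capitals mark the bases that differ from Ighg2b.
Ighg2b: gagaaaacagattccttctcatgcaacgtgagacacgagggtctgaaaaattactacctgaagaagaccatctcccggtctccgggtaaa
Ighg2c: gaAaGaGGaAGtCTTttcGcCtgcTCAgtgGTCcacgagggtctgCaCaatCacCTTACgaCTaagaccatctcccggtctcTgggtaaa
Ighg1: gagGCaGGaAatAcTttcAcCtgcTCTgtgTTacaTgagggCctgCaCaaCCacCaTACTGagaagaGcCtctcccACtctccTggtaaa
Ighg3: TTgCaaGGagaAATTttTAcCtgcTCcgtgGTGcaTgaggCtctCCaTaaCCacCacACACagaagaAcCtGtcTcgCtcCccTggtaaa
The Ighg2b stretch is chr12:113306392-113306481. Ighg2c (chr12:113287392-113287481) differed from it at 28 of the 90 bases, Ighg1 (chr12:113328979-113329068) at 31 and Ighg3 (chr12:113359668-113359757) at 36. In this window the 4 genes were thus distinct, while reads from more alike parts of Ighg2b and Ighg2c can still be split between them. The whole Ighg2b gene (ENSMUSG00000076613) spans chr12:113302965-113307933.

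The germinal-centre name held against marker genes. Rgs13, a regulator of G-protein signalling typical of germinal-centre B cells, stood at 517 and 565 CPM in IgG2b cells of SFB-positive replicates 1 and 2 and at 225 and 634 CPM in those of SFB-negative replicates 1 and 2. CPM here are UMIs of a gene per 1000000 UMIs of the summed cells, the 8 constant genes left out. In the naive-like clusters 0 and 1 of the same libraries Rgs13 lay between 6.15 and 9.16 CPM. All 13 germinal-centre markers were detected in the IgG2b cells of each library, with a summed level of 2764 to 4320 CPM, against 317 to 414 CPM in clusters 0 and 1. Cluster 3 comes from the authors' clustering of these same cells, in which such genes can take part. The figures thus describe the cells and test nothing.

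IgG2b cells were a larger part of cluster 3 in both SFB-positive libraries than in either SFB-negative library. They were 57 of 203 cells (28.1%, exact 95% interval 22.01 to 34.8) in SFB-positive replicate 1 and 205 of 830 (24.7%, 21.8 to 27.8) in SFB-positive replicate 2. In SFB-negative replicate 1 they were 13 of 148 (8.78%, 4.76 to 14.6), and in SFB-negative replicate 2 they were 30 of 719 (4.17%, 2.83 to 5.90). The groups did not overlap. The mean share was 26.4% ± 2.39 in SFB-positive and 6.48% ± 3.26 in SFB-negative libraries (SD, n = 2 each), a difference of 19.9 percentage points. Within replicate numbers 1 and 2, which also separate the libraries by processing version, the difference was 19.3 and 20.5 points. With 2 against 2 libraries, the two-sided exact permutation p of 0.33 is the smallest possible.

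**Figure D1:**
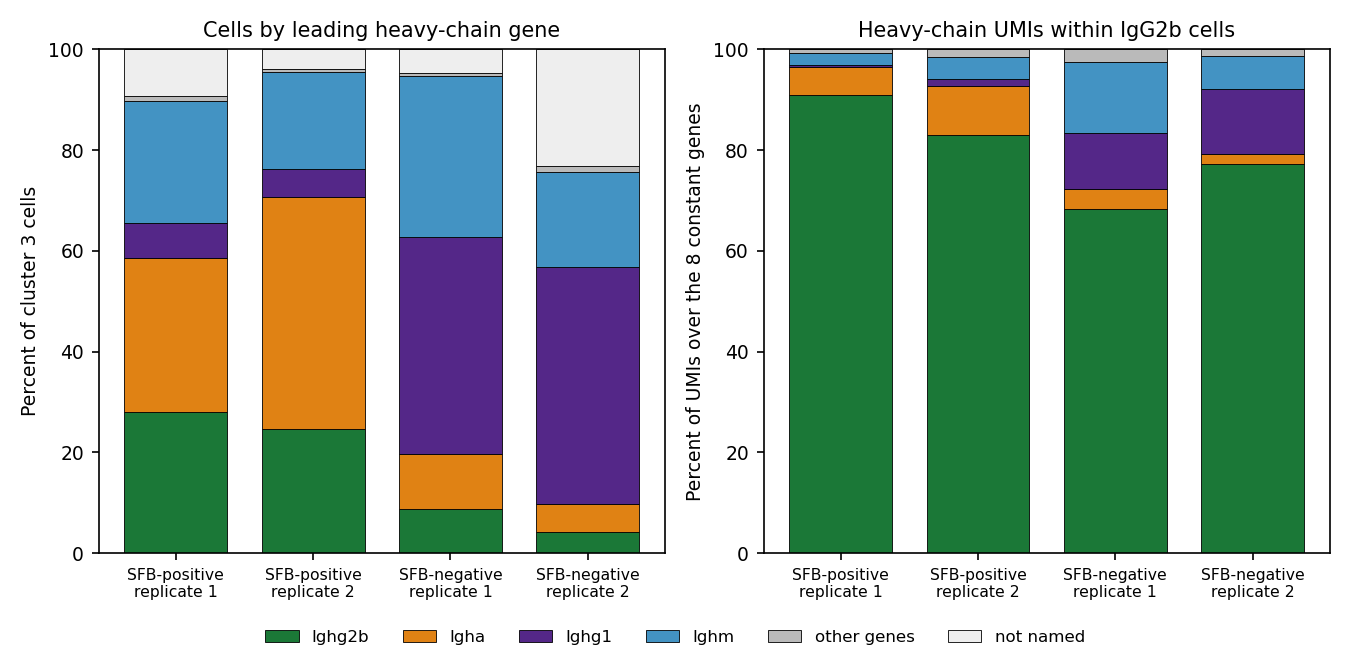
Left, percent of cluster 3 cells named by each leading heavy-chain constant gene in the 4 libraries (not named: under 3 UMIs or a tie). Right, percent of the UMIs over the 8 constant genes that each gene holds within the IgG2b cells. In SFB-positive replicate 1 a single cell holds 764 of the 1313 Ighg2b UMIs. Ighg2b names 28.1% and 24.7% of cells in the SFB-positive libraries and 8.78% and 4.17% in the SFB-negative libraries.

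The denominator was uneven. In SFB-negative replicate 2, 131 of 719 cluster 3 cells had under 3 UMIs over the 8 genes, against 5 to 18 cells in each of the other 3 libraries. Counted among cells with a single leading gene, IgG2b cells made up 31.0% and 25.7% in SFB-positive replicates 1 and 2 and 9.22% and 5.43% in SFB-negative replicates 1 and 2. As a share of all table cells, so with the size of cluster 3 included, they were 1.67% and 2.78% in SFB-positive libraries and 0.321% and 0.388% in SFB-negative libraries.

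Free RNA in droplets can give a cell Ighg2b UMIs that it did not make, and this background was higher in the SFB-positive libraries. Of barcodes with T-cell receptor complex transcripts and no B-cell transcripts, which should lack Ighg2b, 5.19% and 12.7% held an Ighg2b UMI in SFB-positive replicates 1 and 2, at median depths of 1438 and 6511 UMIs. The same share was 0% (0 of 204, which allows up to 1.47%) and 0.290% in SFB-negative replicates 1 and 2, at median depths of 1586 and 3551 UMIs. Among cluster 3 cells an Ighg2b UMI was found in 55.2% and 58.1% in SFB-positive and in 19.6% and 9.74% in SFB-negative libraries, at higher median depths of 4144, 17122, 4184.5 and 7359 UMIs in the same order of libraries. Few of the barcodes with T-cell transcripts met the full rule for an IgG2b cell. The counts were 2 of 231 and 2 of 979 in SFB-positive libraries and 0 of 204 and 0 of 689 in SFB-negative libraries. In clusters 0 and 1 the rule was met by 0.0765% and 0.181% of cells in SFB-positive replicates 1 and 2 and by 0.0308% and 0.0357% in SFB-negative replicates 1 and 2. Cells of clusters 0 and 1 were shallower than cluster 3 cells, with medians of 1198 and 5272 UMIs in SFB-positive and 1216 and 3027 UMIs in SFB-negative libraries. The share of IgG2b cells in cluster 3 exceeded each of these background shares in its own library.

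Within the IgG2b cells, Ighg2b held most heavy-chain UMIs and other constant genes the rest. Its share of the 8-gene UMIs was 91.0% and 83.0% in SFB-positive replicates 1 and 2 and 68.3% and 77.3% in SFB-negative replicates 1 and 2. The 91.0% is raised by a single cell that held 764 of the 1313 Ighg2b UMIs there. The median share per cell was 89.7% and 88% in SFB-positive and 66.7% and 77.5% in SFB-negative libraries. Of the 305 cells, 100 held Ighg2b UMIs alone, 133 also held Igha UMIs, 79 Ighm, 38 Ighg1, 8 Ighg3 and 2 Ighg2c. The companion gene followed the library. Igha UMIs were in 24 of 57 and 103 of 205 IgG2b cells of SFB-positive libraries and in 2 of 13 and 4 of 30 of SFB-negative libraries. Ighg1 UMIs were in 3 of 57 and 15 of 205 IgG2b cells of SFB-positive libraries and in 4 of 13 and 16 of 30 of SFB-negative libraries. Igha and Ighg1 were also the most common leading genes of the other cells of those groups, as the plot of leading genes shows, and the part of free RNA in these companion UMIs was not tested.

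A single cell carried much of the Ighg2b signal of SFB-positive replicate 1. It held 764 of the 1313 Ighg2b UMIs of the 57 members there, with 2232 UMIs of the kappa light chain Igkc and 93 of Jchain, which links IgA and IgM units, and none of Rgs13, Mki67 or the plasma-cell regulator Prdm1. The highest cell held 80 of 4386 Ighg2b UMIs in SFB-positive replicate 2, 30 of 136 in SFB-negative replicate 1 and 12 of 167 in SFB-negative replicate 2. Because members are counted as cells, leaving out the top cell of each library moved the difference in share to 19.7 points. At the edge of the rule, 11 members had exactly 3 UMIs over the 8 genes, and 7 cells led by Ighg2b with 2 UMIs fell just outside. A further 20 cells tied Ighg2b with another gene.

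IgG2b cells resembled the other cluster 3 cells in depth. Median UMIs per cell were 4158 and 17590 in IgG2b cells of SFB-positive replicates 1 and 2 and 4583 and 7228 in those of SFB-negative replicates 1 and 2. The other cluster 3 cells had medians of 4133 and 16806 in SFB-positive and 4064 and 7359 in SFB-negative libraries. Medians of detected genes were higher in IgG2b cells in 4 of 4 libraries. The step was smallest in SFB-positive replicate 1 (1725 against 1709.5 genes) and largest in SFB-negative replicate 1 (1948 against 1766 genes). SFB-positive replicate 2 held 3680878 of the UMIs of IgG2b cells, against 66582 to 266787 in each other library, so it weighs most in the edgeR fits that include it. Barcodes shared between libraries touched 1 member, which had the same barcode as a table cell of another library.

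**Figure D2:**
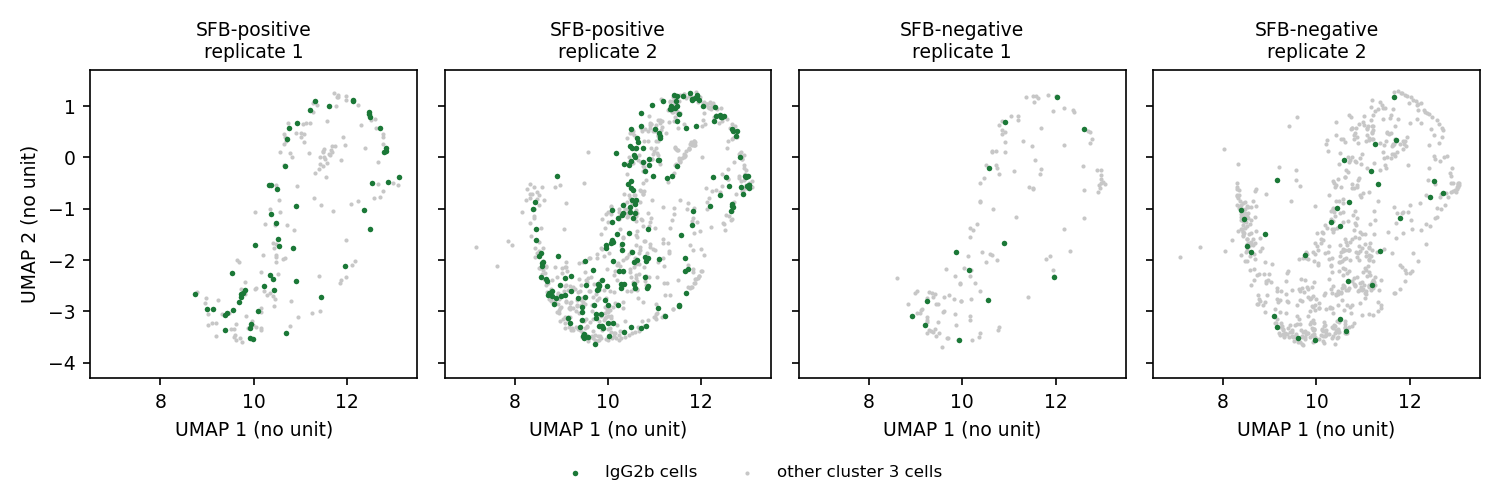
The authors' UMAP layout (2 coordinates without a unit) of cluster 3 cells, with a panel for each library, IgG2b cells in green and other cluster 3 cells in grey. IgG2b cells lie throughout the cluster in each library and form no separate island (3 cells, 1 of them an IgG2b cell, fall outside the drawn range).

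On the authors' layout IgG2b cells were spread over the whole of cluster 3. The median of the second coordinate was lower in IgG2b cells than in the other cells in the replicate 1 libraries (-1.70 against -0.97 in SFB-positive, -2.19 against -1.82 in SFB-negative). It was higher in the replicate 2 libraries (-1.26 against -1.58 in SFB-positive, -1.23 against -1.73 in SFB-negative).

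The antibody tags, which report surface protein, were present in both replicate 1 libraries only. A tag for IgG2b is not among the 15. With 3 or more tag counts taken as positive, the IgG1 tag marked 7.02% of 57 IgG2b cells in SFB-positive replicate 1 and 7.69% of 13 in SFB-negative replicate 1. It marked 50% and 93.8% of the cells named by Ighg1 in the same libraries. The IgA tag marked 10.5% and 7.69% of IgG2b cells, against 38.7% and 50% of the cells named by Igha. IgG2b cells were thus close to the cells named by Ighm (8.16% and 12.8% for the IgG1 tag, 8.16% and 10.6% for the IgA tag) and far from the cells named by the matching gene. Rat isotype-control tags, a measure of unspecific binding, marked 0% to 8.77% of IgG2b cells in SFB-positive replicate 1 and 0% to 7.69% in SFB-negative replicate 1. The IgM tag itself marked 4.08% and 6.38% of the cells named by Ighm. The CD38 tag marked 68.4% of IgG2b cells and 78.1% of the other cluster 3 cells in SFB-positive replicate 1, and 100% of IgG2b cells and 88.9% of the other cells in SFB-negative replicate 1. The IgD tag marked 22.8% of IgG2b cells and 41.1% of the other cells in SFB-positive replicate 1, and 53.8% and 51.1% in SFB-negative replicate 1. For both tags IgG2b cells were lower in the SFB-positive and higher in the SFB-negative library. One library per group holds tags, so no test was made, and the intervals in the plot of tags cover counting error only.

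**Figure D3:**
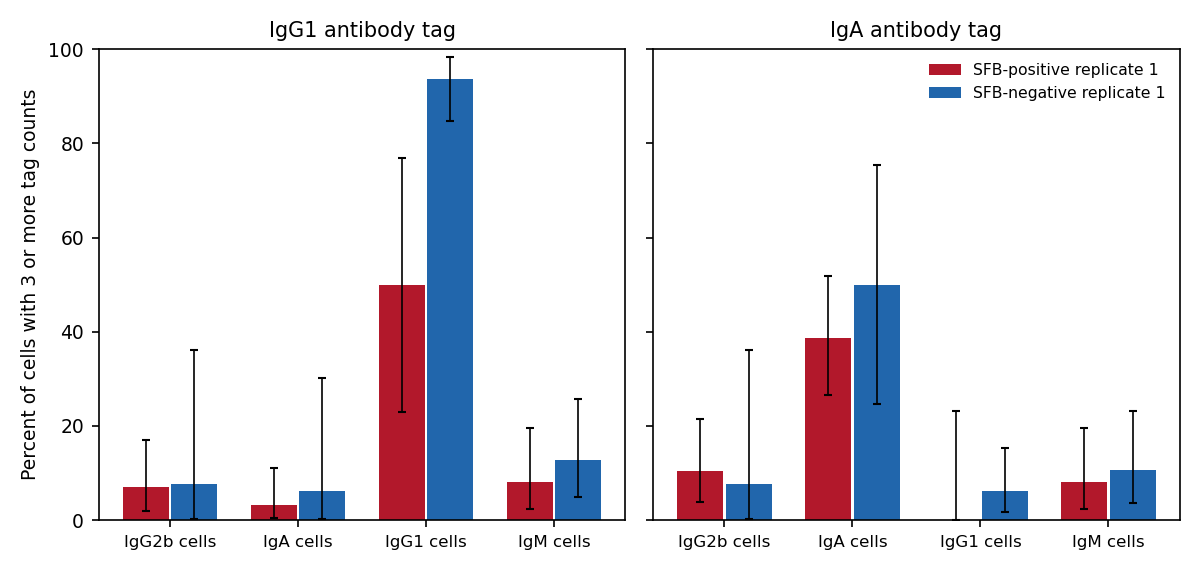
Percent of cells (with exact 95% binomial intervals as bars) with 3 or more counts of the IgG1 or IgA antibody tag in the replicate 1 libraries, for cells named by Ighg2b, Igha, Ighg1 and Ighm. The IgG1 tag marks 7.02% and 7.69% of IgG2b cells but 50% and 93.8% of IgG1 cells.

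Light chains differed in one respect. Cells led by a lambda rather than a kappa constant gene were 3 of 57 and 6 of 205 IgG2b cells (5.26% and 2.93%) in SFB-positive libraries, and 0 of 13 and 0 of 30 in SFB-negative libraries. Among the other cluster 3 cells they were 8.90% and 5.92% in SFB-positive and 7.41% and 8.56% in SFB-negative libraries. The share was lower in IgG2b cells in 4 of 4 libraries, and with 4 libraries the exact sign-flip test cannot go below p = 0.13. With 13 and 30 cells, the zeros of the SFB-negative libraries carry little weight. Low shares were not particular to IgG2b cells: cells named by Ighg1 had 7.14% and 0% in SFB-positive and 1.56% and 6.49% in SFB-negative libraries. Counted as UMIs, the lambda share was not lower in SFB-positive replicate 2 (14.4% in IgG2b cells, 14.3% in the other cells).

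The next comparison asked which other genes set IgG2b cells apart from the rest of cluster 3. Summed counts per library were compared with edgeR's quasi-likelihood test with library as a block, over 6593 genes and without the 8 constant genes. At an adjusted p (Benjamini-Hochberg) under 0.05, 16 genes (0.243% of those tested) were higher in IgG2b cells and 71 (1.08%) were lower. The direction was the same in all 4 libraries for 43 of these 87 genes (49.4%), against 14.3% of all genes tested. The genes were called on the same 4 libraries, so this excess is no independent evidence for the calls. The calls rest on SFB-positive replicate 2: without it 0 genes were higher and 8 lower, of which 6 are among the 87 (Plac8, Capg, Serpinb1a, Ly6d, Sub1 and Iglc2). DESeq2 called Plac8 alone (89 genes had an unadjusted p under 0.05) and limma, which weighs the libraries equally, called no gene (191 had an unadjusted p under 0.05).

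Plac8, a small cysteine-rich protein gene (ENSMUSG00000029322, chr5:100553725-100572245), had the lowest log2 difference of the 71 lower genes. Its level was 37.5 and 16.8 CPM in IgG2b cells of SFB-positive replicates 1 and 2, and 45.1 and 54.8 CPM in those of SFB-negative replicates 1 and 2. The other cluster 3 cells held 368 and 83.9 CPM in SFB-positive and 279 and 88.8 CPM in SFB-negative libraries. IgG2b cells were thus below the other cells of their own library in 4 of 4 libraries, and the ranges over libraries did not overlap. The log2 difference was -2.33 ± 0.16 (SE, edgeR adjusted p = 2.72e-44). It held without SFB-positive replicate 2 (-2.28, adjusted p = 1.60e-06) and in DESeq2 (-2.21, adjusted p = 4.07e-05).

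Further genes that were lower in IgG2b cells in every library include surface proteins. Ly6d, a surface protein of the B lineage, had 71.2 and 80.1 CPM in IgG2b cells of SFB-positive replicates 1 and 2 and 180 and 50.9 CPM in those of SFB-negative replicates 1 and 2, against 311 and 143 CPM in SFB-positive and 211 and 106 CPM in SFB-negative other cells (log2 -1.04 ± 0.13, adjusted p = 2.48e-13). Cd38, an ectoenzyme that mouse germinal-centre B cells carry at a low level, had 15.0 and 15.8 CPM in IgG2b cells of SFB-positive libraries and 15.0 and 7.83 CPM in those of SFB-negative libraries, against 63.6, 31.5, 24.5 and 21.2 CPM in the other cells of the 4 libraries in the same order (log2 -1.14 ± 0.21, adjusted p = 1.05e-05). The CD38 tag, a surface measure, was lower in IgG2b cells in 1 of its 2 libraries. Capg, which caps actin filaments, differed by -1.45 ± 0.19, Serpinb1a, a protease inhibitor gene with near copies, by -1.41 ± 0.22, and Sub1, a transcription coactivator, by -0.94 ± 0.12. The cell-cycle inhibitor Cdkn1b (-0.96 ± 0.20), the transcription factors Aff1 (-1.44 ± 0.20) and Trps1 (-1.20 ± 0.17) and the kinase Map3k1 (-0.94 ± 0.16) were lower too. Mndal, a member of an interferon-inducible family with near copies, differed by -1.13 ± 0.22. Pld4, an endolysosomal nuclease, differed by -0.93 ± 0.25, but in SFB-negative replicate 1 its level before scaling was 45.1 CPM in IgG2b cells and 42.4 CPM in the other cells. Of these 12 genes, Plac8, Capg, Serpinb1a, Ly6d and Sub1 passed without SFB-positive replicate 2, Mndal, Map3k1 and Pld4 did not, and the other 4 were too low to be tested there. IgG2b cells of SFB-negative replicate 1 summed to 66582 UMIs, so low levels in them, as for Cd38, rest on very few UMIs. Aff1, Trps1, Serpinb1a and Cdkn1b had 0 CPM in those cells. Aff1 and Trps1 had 0 CPM in IgG2b cells of SFB-positive replicate 1 too, and Pld4 in those of SFB-negative replicate 2. For such low genes the direction in a small library carries little weight.

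Genes that were higher in IgG2b cells changed less. Parm1, which encodes a mucin-like membrane protein, had 22.5 and 142 CPM in IgG2b cells of SFB-positive replicates 1 and 2 and 45.1 and 66.5 CPM in those of SFB-negative replicates 1 and 2. In the other cells it had 8.87 and 47.6 CPM in SFB-positive and 37.5 and 54.2 CPM in SFB-negative libraries. The ranges overlap, and the fitted difference (log2 1.31 ± 0.14, edgeR adjusted p = 4.73e-18) became 0.39 without SFB-positive replicate 2 and no longer passed. Nrgn, neurogranin, a calmodulin-binding protein, had 78.7, 56.8, 60.1 and 97.8 CPM in IgG2b cells of the 4 libraries (SFB-positive replicates 1 and 2, then SFB-negative replicates 1 and 2) and 26.6, 28.0, 18.0 and 90.7 CPM in the other cells (log2 0.84 ± 0.15, adjusted p = 4.68e-06). The centrosome gene Cep57 (0.50 ± 0.11), the inhibitory receptor Btla (0.44 ± 0.11), the low-affinity IgE receptor Fcer2a (0.44 ± 0.12), the actin-assembling formin Daam1 (0.57 ± 0.12), the RNA-binding Pum3 (0.53 ± 0.15) and the elongation factor partner Eaf2 (0.42 ± 0.09) were also higher in all 4 libraries. None of these 8 genes passed without SFB-positive replicate 2.

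**Figure D4:**
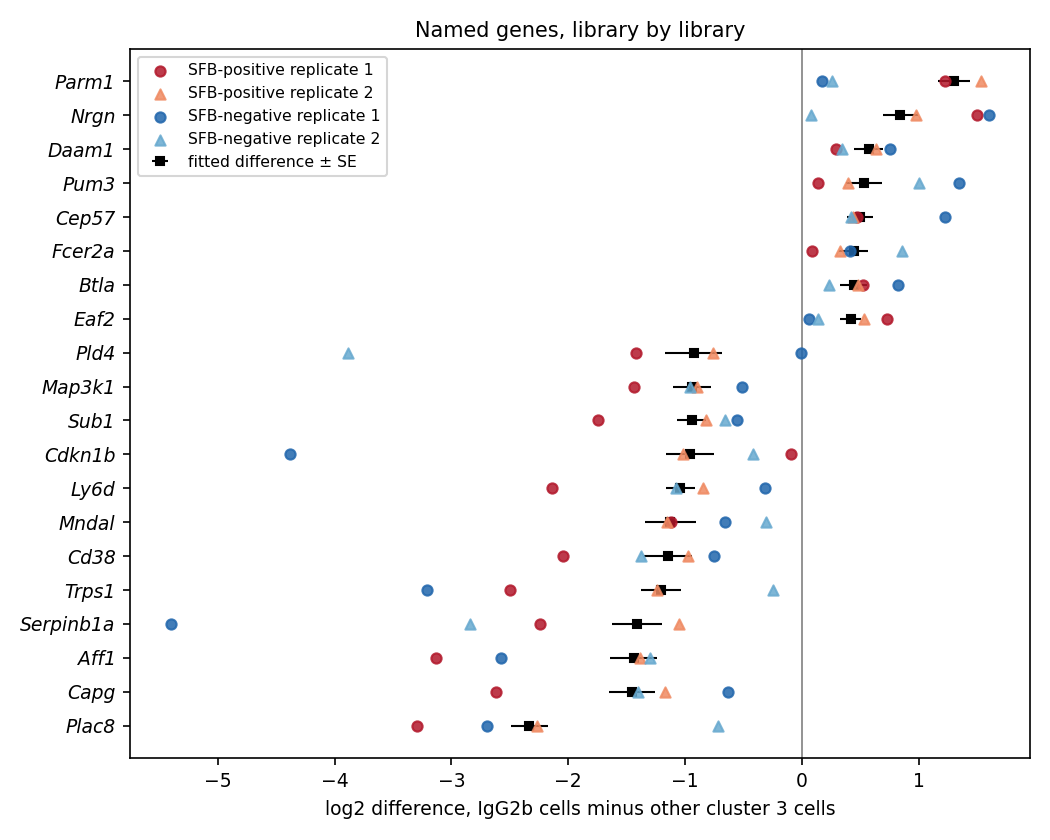
Log2 difference (after TMM scaling) between IgG2b cells and the other cluster 3 cells for the named genes, with a point for each library and a black square for the fitted difference with its standard error. Genes in the lower part are below 0 in each library, with Plac8 at -2.33, and Parm1 at the top reaches 1.31 through the SFB-positive libraries.

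The gene lists show which functions the called genes have. Of 17 genes of memory and of exit from the germinal centre, 11 were tested, and 4 were lower in IgG2b cells and none higher, with a median log2 difference of -0.53 against -0.01 over all genes tested. These were Plac8, Cd38, the chemokine receptor Ccr6 (-1.38 ± 0.20) and the survival gene Bcl2 (-1.13 ± 0.25), and Ccr6 and Bcl2 were lower in 3 of 4 libraries. Bach2, the tested member of highest level, was not called. As scaled for the interaction fit, it had 228 and 3463 CPM in IgG2b cells of SFB-positive replicates 1 and 2, against 155 and 3318 CPM in the other cells. In SFB-negative replicates 1 and 2 it had 151 and 1582 CPM in IgG2b cells, against 186 and 1700 CPM. The germinal-centre identity list had 3 of 14 tested genes higher and none lower (median 0.16). Eaf2 was higher in 4 of 4 libraries, the membrane-cortex protein gene Basp1 (0.31 ± 0.07) in 3 of 4, and Gcsam, a germinal-centre signalling adaptor (0.40 ± 0.11), in 2 of 4. Rgs13 (0.15 ± 0.12, adjusted p = 1.00) did not pass. Both lambda constant genes that passed were lower in IgG2b cells, Iglc2 by -0.72 ± 0.11 and Iglc1 by -0.37 ± 0.08, in 4 of 4 libraries each, and their reads can be split between near copies.

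Other lists held 0 to 3 calls each, all of them lower in IgG2b cells except Gcsam, which is also in the dark-zone list. In B cell receptor signalling 2 of 20 tested genes were lower, the inhibitory co-receptor Cd72 (-0.52 ± 0.14, lower in 4 of 4 libraries) and the complement receptor Cr2 (-0.73 ± 0.16, 3 of 4). In positioning and homing 3 of 12 were lower, the chemokine receptors Ccr6 and Ccr7 (-0.70 ± 0.16, lower in 3 of 4 libraries) and the integrin chain Itga4 (-0.49 ± 0.13, lower in 2 of 4 libraries). Of the atypical memory list 2 of 5 tested genes were lower, Vim (-0.54 ± 0.13, lower in 4 of 4 libraries) and Lgals1 (-0.73 ± 0.16, 3 of 4). Among 17 tested genes of switch-directing cytokine signals the interferon-gamma receptor chain Ifngr2 was lower (-0.67 ± 0.19, 3 of 4 libraries). SFB-negative replicate 1 ran the other way for Cr2 (60.1 CPM in IgG2b cells against 50.6 CPM in the other cells), Ccr7 (210 against 109 CPM), Lgals1 (60.1 against 47.3 CPM) and Ifngr2 (75.1 against 42.4 CPM). No gene passed among 18 tested genes of the class-switch machinery, 20 of S phase, 20 of G2 and M phase, 12 of MHC class II, 13 of plasma cell and secretion, 9 of heat shock and 4 of the type I interferon response. Over all genes 0.243% were higher and 1.08% lower.

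Summed markers of T cells, epithelium and myeloid cells were lower in IgG2b cells than in the other cells, and those of plasma cells were not. For T cells and epithelium the sums rest on few UMIs. The summed level of 9 T-cell markers was 11.2, 15.8, 0 and 27.4 CPM in IgG2b cells of SFB-positive replicates 1 and 2 and SFB-negative replicates 1 and 2, and 16.3, 23.1, 14.7 and 31.4 CPM in the other cells. The 5 epithelial markers summed to 0 to 7.5 CPM in IgG2b cells, against 4.96 to 281 CPM in the other cells, where SFB-positive replicate 1 was highest. The 6 myeloid markers summed to 145 to 176 CPM in IgG2b cells, against 164 to 206 CPM in the other cells. Cd4, Csf1r, Itgam, Fabp2 and Reg3g had 0 UMIs in the 305 IgG2b cells, and Cst3, a protease inhibitor not restricted to myeloid cells, held 631 of the myeloid UMIs, against 14 for Tyrobp, 3 for Lyz2 and 3 for Fcer1g. The T-cell, epithelial and myeloid sums were lower in IgG2b cells in 4 of 4 libraries. In SFB-positive replicate 1 the T-cell UMIs of IgG2b cells were 1 each of Cd3e, Cd3g and Trbc2, and the epithelial UMIs 1 each of Epcam and Krt8. In SFB-negative replicate 1 both sums were 0 in 66582 UMIs, so the direction in these libraries carries little weight. The 10 plasma-cell markers summed to 3565 and 1319 CPM in IgG2b cells of SFB-positive replicates 1 and 2 and to 3034 and 1495 CPM in those of SFB-negative replicates 1 and 2, against 2736 and 1436 CPM in SFB-positive and 2713 and 1470 CPM in SFB-negative other cells. IgG2b cells were thus higher in 3 of 4 libraries, and in SFB-negative replicate 1 their plasma sum exceeded their germinal-centre sum of 2764 CPM. The member with the most Ighg2b UMIs there, 1 of 13 cells, held 27 Jchain UMIs and 0 of Rgs13 among its 6739 UMIs. Whether the order of both sums holds without that cell was not tested. The 6 naive B markers were lower in IgG2b cells in 3 of 4 libraries, with 766 CPM against 540 CPM in SFB-negative replicate 1 as the exception. The 8 memory B markers, Bach2 among them, summed to 431 and 4011 CPM in IgG2b cells of SFB-positive replicates 1 and 2, against 402 and 3883 CPM in the other cells. In SFB-negative replicates 1 and 2 they summed to 270 and 1640 CPM in IgG2b cells, against 344 and 1786 CPM in the other cells. Red-cell markers were 9.78 to 19.6 CPM in IgG2b cells and 4.44 to 26.7 CPM in the other cells, higher in IgG2b cells in 3 of 4 libraries. Stromal markers were 0 to 2.72 CPM in IgG2b cells outside SFB-negative replicate 2, where they were 39.1 CPM against 14.0 CPM in the other cells. The part of these marker sums in the gene differences was not tested.

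The other cluster 3 cells are a mixture, so IgG2b cells were also set against cells named by Igha (499 cells), Ighg1 (463) and Ighm (391) under the same rule. The most genes were called against the cells named by Ighm, here called IgM cells. Of 4138 genes tested, 63 (1.52%) were higher in IgG2b cells and 178 (4.3%) were lower. The direction was the same in all 4 libraries for 155 of these 241 (64.3%, against 19.8% of all genes tested), which again follows in part from calling them on those libraries. DESeq2 called 13 higher (0.314%) and 45 lower (1.09%), 56 of them among the 241, and without SFB-positive replicate 2 the counts were 5 (0.132%) and 29 (0.768%), 30 of them among the 241. Limma called 1 higher and 6 lower.

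Plac8 showed the largest of the named differences from IgM cells. Against the 37.5 and 16.8 CPM (SFB-positive) and 45.1 and 54.8 CPM (SFB-negative) in IgG2b cells, IgM cells had 459 and 269 CPM in SFB-positive and 637 and 244 CPM in SFB-negative libraries. Its log2 difference was -3.68 ± 0.21 (edgeR adjusted p = 5.97e-13). Ly6d reached 667 and 482 CPM in SFB-positive and 402 and 303 CPM in SFB-negative IgM cells, above the 50.9 to 180 CPM of IgG2b cells, with no overlap (-2.64 ± 0.18, adjusted p = 6.93e-12). Cd38 (-2.51 ± 0.23), Capg (-2.66 ± 0.21), Mndal (-2.51 ± 0.25) and the signalling adaptor Sla (-2.99 ± 0.32) were lower as well. For Plac8, Ly6d, Capg and Cd38 the difference passed in DESeq2 and without SFB-positive replicate 2, while Sla passed in neither and Mndal in DESeq2 only.

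Part of the germinal-centre list, 7 of 14 tested genes, was higher in IgG2b cells than in IgM cells, against 1.52% of all genes tested. S1pr2, the receptor that keeps B cells inside the germinal centre, had 142 and 128 CPM in IgG2b cells of SFB-positive replicates 1 and 2 and 45.1 and 82.2 CPM in those of SFB-negative replicates 1 and 2. In IgM cells it had 23.95 and 64.3 CPM in SFB-positive and 40.7 and 45.6 CPM in SFB-negative libraries (log2 1.02 ± 0.19, edgeR adjusted p = 3.81e-04). The gap was widest in SFB-positive replicate 1 and small in SFB-negative replicate 1, where 13 IgG2b cells were available. None of the 14 was lower, and the list median was 0.59 against -0.01 over all genes. The 7 were S1pr2, Gcsam (1.09 ± 0.15), Tox (1.41 ± 0.19), Mef2b (0.65 ± 0.14), Eaf2 (0.64 ± 0.14), Nuggc (0.61 ± 0.16) and Lmo2 (0.58 ± 0.15). None of the 7 passed without SFB-positive replicate 2, and Gcsam, Mef2b and Eaf2 passed in DESeq2. Rgs13 did not pass (-0.12 ± 0.35), with 517 and 565 CPM in IgG2b cells of SFB-positive and 225 and 634 CPM in those of SFB-negative libraries, against 531 and 494 CPM in SFB-positive and 940 and 482 CPM in SFB-negative IgM cells. The sum of the 13 germinal-centre markers was higher in IgG2b cells in 3 of 4 libraries and lower in SFB-negative replicate 1 (2764 against 3254 CPM).

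Several genes of resting and memory B cells were lower. Of 6 tested genes of memory and exit from the germinal centre, 4 were lower in IgG2b cells than in IgM cells, Plac8, Cd38, Klf2 (-1.29 ± 0.17) and the oxysterol receptor Gpr183 (-1.84 ± 0.21), with a median of -1.56 over the list. Klf2, a transcription factor of resting lymphocytes, had 127 and 122 CPM in IgG2b cells of SFB-positive libraries and 180 and 39.1 CPM in those of SFB-negative libraries, against 323, 269, 199 and 187 CPM in IgM cells of the 4 libraries in the same order. Of 16 tested light-zone genes 5 were lower (Cd72, Nr4a1, Ccnd2, Myc and Irf4) and 1 higher (Slamf1). The cytokine-signal list had 3 of 15 lower, the TGF-beta receptor chain Tgfbr2 (-0.72 ± 0.16), the BAFF and APRIL receptor gene Tnfrsf13b (-0.99 ± 0.17) and Ifngr2 (-1.47 ± 0.25), with Tnfrsf13b the one lower in 4 of 4 libraries. MHC class II had 3 of 12 lower (H2-Aa, H2-DMb2 and H2-Oa), each by at most 0.51 on the log2 scale. Of all 4138 genes tested against IgM cells, 4.3% were lower and 1.52% higher.

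Naive-cell markers moved with these differences. The summed naive B markers were 296, 258 and 301 CPM in IgG2b cells of SFB-positive replicates 1 and 2 and SFB-negative replicate 2, and 691, 613 and 593 CPM in the IgM cells there. In SFB-negative replicate 1 the order turned, with 766 CPM in IgG2b cells and 610 CPM in IgM cells. Ccr7 and Klf2 belong to that marker list, and the part of naive-like cells within the IgM class was not tested.

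Other named genes were higher in IgG2b cells than in IgM cells. Rgs1, which dampens chemokine receptor signals, had 495 and 302 CPM in IgG2b cells of SFB-positive and 661 and 278 CPM in those of SFB-negative libraries, against 120 and 146 CPM in SFB-positive and 352 and 194 CPM in SFB-negative IgM cells (1.00 ± 0.16). Dap, linked to cell death and autophagy, differed by 0.99 ± 0.14 and passed in DESeq2, in limma and without SFB-positive replicate 2. Anxa2, a membrane-binding annexin of the atypical memory list, differed by 0.84 ± 0.16. Hmces, a protein that shields abasic DNA sites and the single member of the class-switch machinery to pass (1 of 9 tested), differed by 0.57 ± 0.14. The nuclear-envelope gene Syne1 (1.25 ± 0.18) and Nrgn (1.12 ± 0.21) were higher in all 4 libraries.

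**Figure D5:**
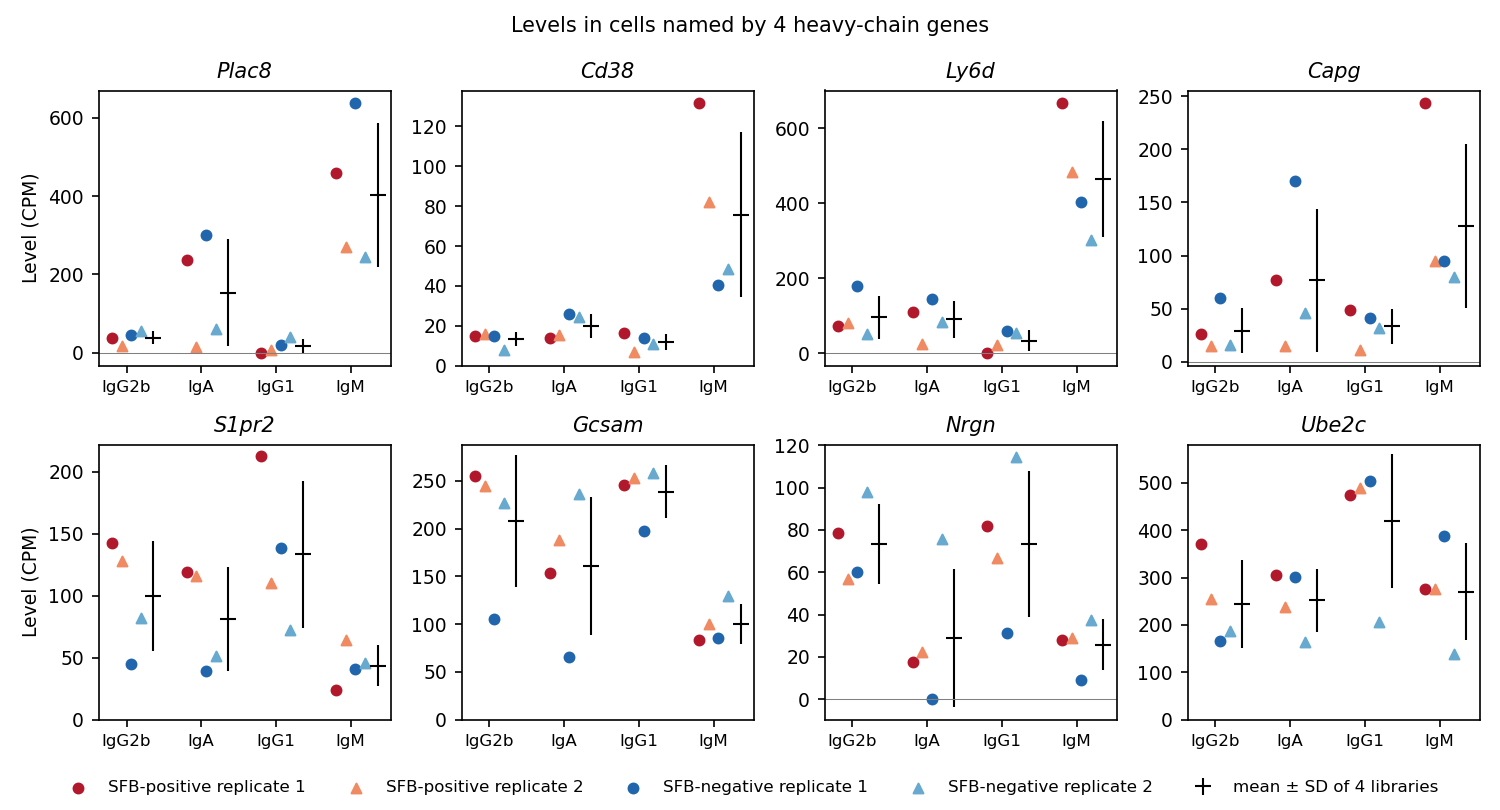
Levels in CPM of 8 genes in cells named by Ighg2b, Igha, Ighg1 and Ighm, with a point per library and, in black, the mean with the SD over the 4 libraries. IgM cells stand above IgG2b cells for Plac8, Cd38, Ly6d and Capg, and IgG1 cells stand above IgG2b cells in each library for Ube2c.

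From the switched classes the IgG2b cells differed in few genes. Against IgA cells 16 of 4245 genes (0.377%) were higher and 7 (0.165%) were lower. DESeq2 and limma called 0 (45 and 112 genes had an unadjusted p under 0.05), and without SFB-positive replicate 2 the counts were 1 and 5, none of them among the 23. Lgals1, galectin-1, had 56.2 and 34.2 CPM in IgG2b cells of SFB-positive and 60.1 and 27.4 CPM in those of SFB-negative libraries, against 87.5 and 72.9 CPM in SFB-positive and 65.4 and 179 CPM in SFB-negative IgA cells (-1.20 ± 0.18, edgeR adjusted p = 3.57e-05). IgG2b cells were lower in each library, with the smallest gap in SFB-negative replicate 1. Crip1, a LIM-domain protein, was lower by a smaller amount (-0.43 ± 0.10).

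Parm1 and Nrgn were higher than in IgA cells as they were against the whole cluster. Nrgn had 78.7 and 56.8 CPM in IgG2b cells of SFB-positive and 60.1 and 97.8 CPM in those of SFB-negative libraries. IgA cells had 17.5 and 22.5 CPM in SFB-positive and 0 and 75.8 CPM in SFB-negative libraries (1.25 ± 0.20, edgeR adjusted p = 6.10e-05). The difference for Parm1 was 1.52 ± 0.17. Fcer2a (0.76 ± 0.15), the adaptor Samsn1 (0.69 ± 0.15), the proton-pump regulator Dmxl1 (0.68 ± 0.11) and the ciliary gene Iqcb1 (0.62 ± 0.14) were higher in all 4 libraries, as was H2-Ab1 of MHC class II (0.22 ± 0.05), the single gene of 12 in that list to pass.

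Against IgG1 cells, 3 of 4204 genes (0.0714%) were higher in IgG2b cells and 9 (0.214%) were lower. Several of the lower genes act in mitosis. Ube2c, the ubiquitin enzyme of mitotic exit, had 371 and 255 CPM in IgG2b cells of SFB-positive replicates 1 and 2 and 165 and 188 CPM in those of SFB-negative replicates 1 and 2, against 474 and 490 CPM in SFB-positive and 503 and 207 CPM in SFB-negative IgG1 cells (-0.76 ± 0.13, edgeR adjusted p = 1.23e-03). Of 20 tested genes of G2 and M phase 3 were lower and none higher, Ube2c, Cenpf (-0.65 ± 0.14) and Cdk1 (-0.71 ± 0.17), with a list median of -0.22. Cenpa, the centromeric histone of the dark-zone list, differed by -0.53 ± 0.13. In S phase 0 of 18 tested genes passed, and Pole2, a subunit of DNA polymerase epsilon outside that list, was higher (1.05 ± 0.25). Pafah1b3 (-0.51 ± 0.12), of lipid metabolism, and the adhesion protein Lpp (-0.42 ± 0.10) were lower in all 4 libraries. DESeq2 and limma called 0 genes (52 and 122 had an unadjusted p under 0.05), and without SFB-positive replicate 2 the counts were 0 and 3, none among the 12. IgG1 cells of SFB-positive replicate 1 numbered 14.

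The orders of the 4 classes follow from these levels. For Plac8 the means over 4 libraries were 38.5 ± 16.1 CPM in IgG2b, 154 ± 137 in IgA, 16.9 ± 17.6 in IgG1 and 402 ± 184 CPM in IgM cells (SD, n = 4). IgM cells stood above IgG2b and IgG1 cells by more than their spread, and IgG2b, IgA and IgG1 cells overlapped. For Nrgn the IgG2b (73.4 ± 19.0) and IgG1 cells (73.5 ± 34.6) overlapped, and the means of IgA (29.0 ± 32.7) and IgM cells (25.8 ± 11.96) were lower. For S1pr2 the order was IgG1 (133 ± 59.4), IgG2b (99.3 ± 44.4), IgA (81.3 ± 41.8) and IgM cells (43.6 ± 16.6), where each neighbour overlapped the next.

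SFB-positive and SFB-negative IgG2b cells were then compared with each other. Over 4391 genes and without a term for the replicate number, edgeR called 0 higher (0%) and 0 lower (0%) (10 had an unadjusted p under 0.05), as did DESeq2 (7 under 0.05). On simulated counts of this comparison the test recovered 0% of genes changed 4-fold, so the count of 0 says little about changes of that size. With the replicate number as a term, which also carries the processing version, 1 gene was higher (0.0228%) and 7 were lower (0.159%) in SFB-positive IgG2b cells. On simulated counts this fit recovered 77% of 4-fold changes. Both simulations gave libraries of the same replicate number the same mean levels, which favours the fit with the term. The real libraries need not pair this way, so both recovery shares hold for that setting only.

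Of the 8 genes, 5 meet the rule for named genes, and they differ in how far they rest on 1 library. Cdk8, the kinase of the Mediator complex, had 15.0 and 72.5 CPM in SFB-positive IgG2b cells and 45.1 and 1902 CPM in SFB-negative IgG2b cells, with SFB-negative replicate 2 far above the rest (with the replicate term, log2 -4.47 ± 0.55, edgeR adjusted p = 1.56e-04). The same library was as high in IgA, IgG1 and IgM cells (2114, 1741 and 1881 CPM), so the high level was shared by the classes of that library. The mitochondrial gene mt-Nd3 (18.7 and 170 CPM in SFB-positive, 105 and 614 CPM in SFB-negative IgG2b cells), Gm26917, a long non-coding RNA (33.7 and 79.6 against 45.1 and 567 CPM), and Pet100, an assembly factor of the respiratory chain (30.0 and 31.8 against 90.1 and 141 CPM), were lower in SFB-positive IgG2b cells. Of these 3, Pet100 is the one in which no SFB-positive library reached a SFB-negative one. Within replicate numbers 1 and 2 the log2 differences were -2.35 and -1.97 for mt-Nd3 and -1.47 and -2.24 for Pet100, but -1.45 and -4.82 for Cdk8 and -0.32 and -2.94 for Gm26917. Without SFB-negative replicate 2 and without the replicate term, Cdk8 (0.14) and Gm26917 (0.47) turned direction and mt-Nd3 (-0.02) was near 0. Hspa1a, a stress-induced chaperone with the near copy Hspa1b, was higher, with 67.5 and 351 CPM in SFB-positive and 45.1 and 3.91 CPM in SFB-negative IgG2b cells (4.20 ± 0.77, adjusted p = 0.0141). Its log2 differences within replicate numbers 1 and 2 were 0.66 and 6.08, so the fitted value rests mainly on replicate number 2. The 3.91 CPM in SFB-negative replicate 2 rests on very few UMIs, of 255532 in all. Without SFB-positive replicate 2 and without the replicate term the difference was 1.99. No gene of the class-switch machinery or of the cytokine-signal list passed in either fit (0 of 10 and 0 of 13 tested).

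Whether the step between IgG2b cells and the other cluster 3 cells differs with SFB was tested as an interaction over 7550 genes, and 0 (0%) and 2 (0.0265%) genes passed in the 2 directions. Vps37b, of membrane sorting, had 41.2 and 52.7 CPM in IgG2b cells and 101 and 98.7 CPM in other cells of SFB-positive libraries, and 75.1 and 157 CPM in IgG2b cells and 62.0 and 105 CPM in other cells of SFB-negative libraries. It was thus lower in IgG2b cells in both SFB-positive and higher in both SFB-negative libraries (interaction -1.47 ± 0.33, edgeR adjusted p = 0.0381). It passed in no fit that left out a library (adjusted p between 0.128 and 0.867). Gm26917 followed the same directions (-1.43 ± 0.26, adjusted p = 1.82e-04), but its interaction turned to 1.79 with a minimum of 5 UMIs and to 1.71 where the leading gene held 75% of the UMIs. With the replicate block in place of the library 0 genes passed (153 had an unadjusted p under 0.05). DESeq2 called 0 genes (33 had an unadjusted p under 0.05), and the 4 further genes with the smallest p (Hist1h1b, P2ry10, Grap2 and Mib1) had an adjusted p of 0.221. Gene differences of IgG2b cells that depend on SFB were thus not detectable at this depth beyond these 2 unsteady calls, and on simulated counts the test recovered 47% of 4-fold differences.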

How the data were processed

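RNA was measured in single cells of 4 libraries (10x Genomics 3′ chemistry, per the labels' protocols). The authors deposited unnormalized UMI counts. Cell Ranger 5.0.1 and mm10 are named in the submitters' processing notes, while per the file headers the replicate 1 matrices came from version 6.0.0 and those of replicate 2 from version 7.0.0. The authors' deposited table gives each cell a cluster number, the percent of mitochondrial UMIs, detected genes and 2 unitless UMAP scores. Table cells were matched to libraries through their barcodes. How the authors filtered cells or removed doublets is not given in the sources used here, and no doublet caller was run.

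Counts of IgG2b cells and of the cells set against them were summed per library and tested with edgeR 4.0.16 (TMM scaling, filterByExpr, robust quasi-likelihood fit, limit 0.05), leaving out the 8 constant genes that named the cells. The library was a block where both classes came from each library. In these fits the spread is pooled over genes and close to counting error, so a small p-value can rest on the deepest library. DESeq2 1.42.0 and limma 3.58.1 (log2 CPM, prior count 2) were alternatives, in R 4.3.3. Levels are CPM of the summed cells before TMM scaling, while log2 differences include it. Named genes are those past the limit with at least 20 CPM on average and the same sign in every library, the largest 12 each way against the other cluster 3 cells, 10 for SFB and 6 for the rest, plus listed genes. The members, lists and tests were chosen with earlier results of these data known. On simulated counts (coefficient of variation 0.15) of IgG2b against other cluster 3 cells, 75% of 2-fold and 100% of 4-fold changes among 6593 genes were recovered. Intervals are exact binomial (95%) and cover counting error only.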

Additional observations from a re-analysis of the deposited data

Results flagged for a closer look

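Vps37b and Gm26917 differed between the groups by a test of the interaction: the log2 difference of IgG2b cells from other cluster 3 cells was lower in SFB-positive than in SFB-negative libraries by 1.47 (-1.47) for Vps37b and by 1.43 (-1.43) for Gm26917. The Gm26917 value turned to 1.79 with a minimum of 5 UMIs and to 1.71 with a 75% leading gene. Further measures moved one way in both SFB-positive libraries and the opposite way in both SFB-negative libraries, a difference that was not tested. They were picked for this pattern from all per-cell measures, list sums, marker sums and thinned genes, most of which lacked it. Random signs over 4 libraries would also give the pattern in some of so many measures, so it is no evidence of a dependence on SFB. For each, the value is the mean step of IgG2b cells from other cluster 3 cells in SFB-positive minus that in SFB-negative libraries. It was -289 CPM for the summed genes of switch-directing cytokine signals (steps of -207 and -133 CPM in SFB-positive, 187 and 52.7 CPM in SFB-negative libraries). It was 1743 CPM for the summed MHC class II genes (2335 and 410 CPM against -616 and -125 CPM) and 189 CPM for the summed memory B markers (28.8 and 128 CPM against -74.1 and -146 CPM). Bach2, one of those memory B markers, moved in the same directions. In cells thinned to 1000 UMIs, the share with a UMI differed by 8.87 percentage points for Parm1, 5.99 for Eya1 and -8.36 for Xbp1. The thinned Parm1 shares were 3.57% and 9.76% in IgG2b cells of SFB-positive libraries and 0% in those of both SFB-negative libraries, where 13 and 30 cells were available. Without thinning, the Parm1 shares of IgG2b cells were 10.5% and 57.1% in SFB-positive and 15.4% and 30.0% in SFB-negative libraries.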

How the results depend on the processing

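The share of IgG2b cells stayed higher in SFB-positive libraries under each alternative, by 15.2 to 22.2 percentage points. With the replicate block it was 19.9 points. The numbers of genes called moved more. Restricting the cells to at most 3000 detected genes left 3 genes against other cluster 3 cells, 1 against IgA, 0 against IgG1 and 18 against IgM cells, and 1 in the interaction. DESeq2 gave 1, 0, 0 and 58 genes in the same order and 0 in the interaction, and limma, chosen after seeing the data, 0, 0, 0 and 7. With the replicate block in place of the library, 15, 5, 0 and 104 genes were called, 0 in the interaction, and 8 between SFB-positive and SFB-negative IgG2b cells. The labels do not say that a replicate number pairs libraries. The deviations of same-numbered libraries correlated by 0.56 over 6267 genes in IgG2b cells and by 0.84 over 6201 genes in the other cells, a hint from the data only. A minimum of 5 UMIs gave 12 genes against IgA cells, 5 against IgG1 cells and 1 in the interaction. Requiring the leading gene to hold 75% of the UMIs gave 7 against IgA cells, 0 in the interaction and 2 between the SFB groups. Without a filter on low counts there were 481 genes against IgM cells, 6 against IgG1 cells, 0 in the interaction and 1 between the SFB groups. Leaving out each library in turn gave 8 to 74 genes against other cluster 3 cells, 6 to 34 against IgA, 3 to 21 against IgG1 and 34 to 425 against IgM cells, 1 to 9 in the interaction and 0 to 10 between the SFB groups. The lowest count came without SFB-positive replicate 2 in the first 4. The counts against IgM cells were 425 without SFB-negative replicate 1 and 417 without SFB-positive replicate 1, against IgA cells 12 without SFB-negative replicate 2, and against IgG1 cells 21 without SFB-positive replicate 1. Between the SFB groups, 10 genes passed without SFB-positive replicate 2 and 1 without SFB-negative replicate 1. In the interaction 9 passed without SFB-negative replicate 2.

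Some genes changed direction. Between the SFB groups Cdk8 became 0.14 and Gm26917 0.47 without SFB-negative replicate 2 (leaving out each library gave -6.10 to 0.14 and -3.40 to 0.47), and Gm26917 became 0.21 with a minimum of 5 UMIs. In the interaction Gm26917 became 1.79 with a minimum of 5 UMIs and 1.71 with a 75% leading gene, Mib1 0.80 with a 75% leading gene, and Hist1h1b -0.22 without SFB-positive replicate 2 (range -0.22 to 2.13). The cause was not tested. The SFB comparison is limited by the 13 and 30 IgG2b cells of the SFB-negative libraries and by 2 libraries per group.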
